A study of Drosophila melanogaster with 164 samples.

Results

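DGRP306 belongs to the Drosophila Genetic Reference Panel, of which 41 inbred lines were sampled here. Each line holds a nearly fixed genotype drawn from a single wild fruit fly population. The 4 whole-body RNA libraries of DGRP306, 2 of larvae and 2 of adults, were picked by the line number in the library titles, out of 164 libraries in all. Within each stage they were set against the libraries of the 40 other lines, 78 larval and 80 adult. With 2 DGRP306 libraries per stage, values are given library by library.

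The groups were DGRP306 larvae (n = 2), DGRP306 adults (n = 2), larvae of the other lines and adults of the other lines, with up to 2 libraries per line and stage. All lines were inbred from an outbred population, had been chosen to be free of inversions and to cover a range of starvation resistance, were reared at 25 °C and received no treatment. Larvae were feeding, in their last instar and of unknown sex, frozen once the first wandering larva was seen in their vial. Adults, whose sex is not given, had been gathered over 48 hours and held for 4 days in fresh vials. Each library pooled 2 to 31 animals, so a value belongs to a pool of animals of 1 inbred line and not to 1 fly. In whole bodies, fewer cells of a type and less RNA per cell cannot be told apart.

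By way of background, an inbred line carries the same alleles in every animal and at every age, so that a regulatory allele which acts wherever a gene is transcribed can shift that gene in larvae and in adults alike. An allele that acts through a tissue or a hormone of 1 stage can shift it at that stage alone. Genes for digestion and for detoxification, such as those for Jonah proteases, cytochromes P450, glutathione S-transferases and UDP-glycosyltransferases, form large families in flies and are known for wide variation between strains.

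The 4 DGRP306 libraries held 10180826 and 3698642 counts in larvae and 4205700 and 14225161 counts in adults, against medians of 10845004 in the other larval and 8670311 in the other adult libraries. The stage labels were checked with markers. Cyp4g1, an oenocyte P450 of the adult cuticle, stood at 39058 and 30358 CPM in DGRP306 adults and at 314 and 136 CPM in DGRP306 larvae, where CPM is a count scaled to a library of fixed size, with library sizes corrected by TMM. The male-specific RNA roX1 had 269 and 89.8 CPM in DGRP306 larvae and 877 and 852 CPM in DGRP306 adults, all within the range of the other libraries, from 43.9 to 678 CPM in larvae and from 266 to 1628 CPM in adults. The yolk protein genes and roX2 were not analysed here. Over the 500 genes that best separated lines in adults, both DGRP306 larval libraries were most like the adults of their own line (r = 0.359 and 0.505, across genes). Of the 80 larval libraries 76 were, and replicate 2 of DGRP882, DGRP897 and DGRP911 had r of -0.06, 0.05 and -0.04 with their own adults and 0.54, 0.64 and 0.47 with the adults of DGRP911, DGRP882 and DGRP897. The fourth, DGRP367 replicate 1, had 0.21 with its own adults and 0.37 with those of DGRP804. These libraries were kept, and without the first 3 of them 160 larval genes were called in place of 133 and 49 at both stages in place of 42. For 10 lists of tissue markers, all 40 sums of CPM over a list in a DGRP306 library lay within the range of the other libraries of the stage. Such ranges were wide, so this cannot show that tissue make-up was alike. For the muscle sarcomere list the DGRP306 larvae had 42713 and 23562 CPM, against 13246 to 57898 CPM in the other larvae.

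Each gene's count was modelled with 1 coefficient per line, and DGRP306 was compared with the mean of the 40 other lines by the edgeR quasi-likelihood test with the Benjamini-Hochberg adjustment over all 7414 genes. A gene was called at an adjusted p under 0.05. The error is the spread between replicates of a line, taken over all lines, so a call says that DGRP306 differs from the average line and not that it stands outside the spread of lines. Log2 differences below carry this error as a standard error (SE).

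In larvae 133 genes were called (1.79% of those tested), 49 higher (0.661%) and 84 lower (1.13%) in DGRP306. In adults 319 genes were called (4.30%), 198 higher (2.67%) and 121 lower (1.63%). At least a 2-fold difference was fitted for 61 of the larval and 73 of the adult calls. Both DGRP306 libraries lay outside the range of all other libraries of the stage for 33 genes in larvae (0.445%) and 35 in adults (0.472%), and 30 and 34 of these were called. Among lines these counts were on the low side: 30 other lines had more larval calls by the same contrast and 10 had fewer, and 32 had more adult calls and 8 fewer. The median of the other lines was 190 calls in larvae and 444.5 in adults, and the contrasts share their libraries, so these counts are a description.

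**Figure D1:**
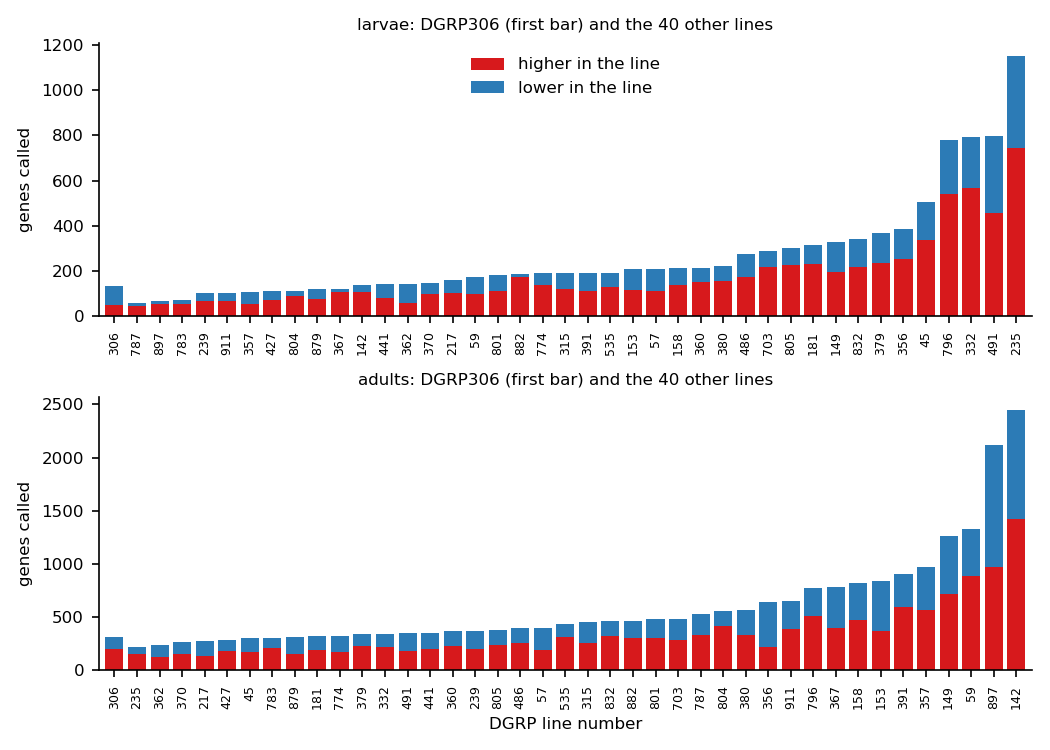
Genes called (y axis) for DGRP306, the first bar of each panel, and for each of the 40 other lines, in ascending order, by the same contrast of a line with the mean of the rest. Red is higher and blue lower in the line. DGRP306 had 133 larval and 319 adult calls, below the medians of the other lines.

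Over all 7414 genes, 3868 larval log2 differences were positive and 3546 negative, with a median of 0.01. Among the genes called, larvae of DGRP306 leaned towards lower expression. Of its larval calls, 36.8% were higher in the line, the lowest share among the 41 lines, the other 40 of which ran between 41.0% and 91.9%. Among adult calls 62.1% were higher, against a median of 59.0% in the other lines. With only 1 of the DGRP306 larval libraries in the fit, the larval calls dropped to 33 (54.5% higher) without replicate 1 and to 26 (50.0% higher) without replicate 2.

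Larvae and adults of DGRP306 differed from the other lines in partly the same genes. Of the larval calls 33.8% were called in adults too, against 4.30% of all genes. Of the adult calls 14.1% were called in larvae too, against 1.79% of all genes. Calls at both stages numbered 45. Of these, 42 had the same direction, 10 higher and 32 lower, and 3 had opposite directions. The larger fitted difference of the 42 was in larvae for 33. The interaction of line and stage passed for only 6 of the 42, and 5 of these were larger in larvae. Over all genes the median absolute log2 difference was 0.17 in larvae and 0.12 in adults. A gene was assigned to 1 stage only if it was called there, was not called at the other stage and differed between stages by the interaction of line and stage, which called 70 genes (0.944%). This left 16 genes in larvae only, 5 higher and 11 lower, and 36 in adults only, 24 higher and 12 lower. For the remaining 72 larval and 238 adult calls the difference between stages did not pass, and 64 and 184 of them had the same sign at the other stage. The share of all genes with the same sign at both stages is not given here, so nothing is read from these counts. Genes are no independent replicates, but across them the deviations of DGRP306 from the other lines had r = 0.392 between its larval libraries, 0.512 between its adult libraries and 0.320 between its larval and adult means.

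**Figure D2:**
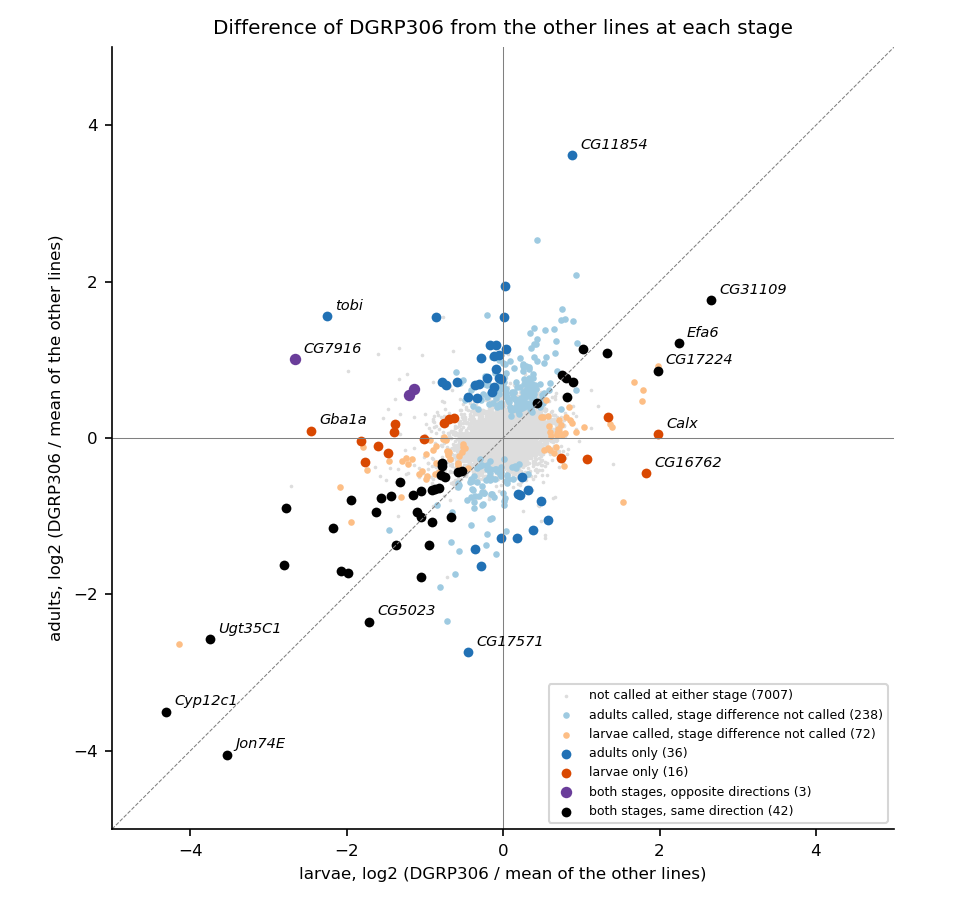
Fitted log2 difference of DGRP306 from the mean of the other lines in larvae (x axis) and in adults (y axis) for all 7414 genes, coloured by class, with the number of genes in each class in the key. The dashed line marks equal difference. Of the 42 genes called at both stages in the same direction, most lie at the lower left. The fitted difference is larger in larvae for 33 of them, and the difference between stages was called for 6. CG11854 and CG17571 lie near the vertical axis, and Calx and CG16762 near the horizontal one.

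The 10 genes higher at both stages were led by CG31109, a protein-coding gene at 3R:25053369-25054653 (BDGP6). It had 88.5 and 49.8 CPM in DGRP306 larvae, against 6.81, 10.9 and 15.9 CPM as the lowest, median and highest of the other larval libraries. In adults it had 52.0 and 50.1 CPM in DGRP306 and 8.28, 14.9 and 22.9 CPM in the other lines. All 4 DGRP306 libraries lay above every library of every other line. The fitted differences were 6.34-fold in larvae (log2 2.66 ± 0.13, adjusted p = 5.3e-20, edgeR) and 3.39-fold in adults (1.76 ± 0.13, adjusted p = 6.9e-15), and the larval one was larger (adult minus larval log2 difference -0.91 ± 0.22, adjusted p = 0.023).

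Efa6, which encodes an exchange factor of Arf6 and in flies restrains microtubules at the cell cortex, lies at 3R:22587755-22608842. It had 174 and 153 CPM in DGRP306 larvae, against 20.1, 32.7 and 412 CPM as the lowest, median and highest elsewhere. Adults had 282 and 288 CPM in DGRP306, against 67.0, 119.6 and 415 CPM. DGRP804 was the only other line with a higher mean than DGRP306 at either stage. Efa6 was 4.74-fold higher in larvae (log2 2.24 ± 0.15, adjusted p = 3.9e-15, edgeR) and 2.32-fold in adults (1.21 ± 0.14, adjusted p = 1.9e-08), with a larger difference in larvae (-1.04 ± 0.26, adjusted p = 0.028).

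CG8067 had 32.6 and 26.0 CPM in DGRP306 larvae, against 9.58, 14.3 and 22.8 CPM in the other larvae, and 52.0 and 50.6 CPM in DGRP306 adults, against 14.3, 23.3 and 42.6 CPM. Again no library of another line reached those of DGRP306. The difference was 2.02-fold in larvae and 2.21-fold in adults (log2 1.02 ± 0.16 and 1.14 ± 0.12, adjusted p = 7e-05 and 2.9e-10, edgeR). CG17224 had 108 and 149 CPM in DGRP306 larvae, against 6.40, 29.5 and 165 CPM, and its mean there was the highest of 41 lines. In adults it had 146 and 166 CPM in DGRP306, against 29.2, 86.2 and 225 CPM, and DGRP356 was higher. Its log2 differences were 1.97 ± 0.26 in larvae and 0.86 ± 0.20 in adults (adjusted p = 1.3e-06 and 0.0039, edgeR). The larval call of CG8067 did not pass without replicate 1 (0.84, adjusted p = 0.14), nor the adult call of CG17224 without replicate 1 (adjusted p = 0.064) or 2 (adjusted p = 0.22).

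PGRP-LB, an amidase that degrades bacterial peptidoglycan and dampens the Imd immune pathway, had 58.2 and 42.0 CPM in DGRP306 larvae, against 13.3, 29.4 and 57.3 CPM. In adults it had 32.3 and 64.5 CPM in DGRP306, against 15.8, 27.6 and 54.1 CPM. DGRP306 had the highest line mean at both stages (log2 0.76 ± 0.16 and 0.81 ± 0.21, adjusted p = 0.003 and 0.011, edgeR), although the libraries overlapped those of other lines. The larval log2 difference was 0.49 without replicate 1 and 0.96 without replicate 2. The adult one rested on 1 library, at 0.19 without replicate 2 and 1.19 without replicate 1. The gene alien, for a COP9 signalosome subunit, had 125 and 91.0 CPM in DGRP306 larvae against a median of 78.8 CPM, and 124 and 71.9 CPM in DGRP306 adults against 69.9 CPM. Its log2 differences were 0.43 ± 0.12 in larvae and 0.45 ± 0.10 in adults (adjusted p = 0.039 and 0.0039, edgeR), and without replicate 1 they were 0.18 (adjusted p = 0.74) and 0.02 (adjusted p = 1).

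The other genes higher at both stages were CG31436, CG10513, Naglu and Cyp4d2, with log2 differences between 0.53 and 1.33. CG31436 and CG10513 belong to the ecdysteroid kinase-like family, and Naglu encodes a lysosomal enzyme that breaks down heparan sulfate. For CG31436, DGRP306 had 66.8 and 57.0 CPM in larvae and 44.6 and 52.9 CPM in adults, against medians of 19.6 and 20.7 CPM elsewhere. DGRP45, DGRP356 and DGRP491 were higher than DGRP306 at both stages. For Cyp4d2, a P450, the DGRP306 larvae had 103 and 195 CPM, against 10.3, 77.1 and 188 CPM in the other lines. DGRP306 adults had 114 and 119 CPM, against 29.1, 69.9 and 152 CPM. Its larval value was 0.90 with both libraries and 0.37 (adjusted p = 0.76) without replicate 2. Of the 10 larval calls in this set 4 passed without replicate 1 and 7 without replicate 2, and of the 10 adult calls 7 and 6. CG31109, Efa6 and CG17224 kept their larval calls in both cases, and CG31109, Efa6, CG31436, CG8067 and Cyp4d2 their adult ones.

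Among the 32 genes lower at both stages, Cyp12c1 had the steepest larval difference. This P450 of the mitochondrial clade lies at 3L:18684259-18686319. Larvae of DGRP306 had 5.05 and 6.71 CPM, against 50.8, 106 and 451 CPM as the lowest, median and highest of the other larval libraries. Its adults had 5.42 and 4.00 CPM, against 27.7, 48.4 and 154 CPM. All 4 libraries stood below every library of every other line. Cyp12c1 was 19.9-fold lower in larvae (log2 -4.31 ± 0.31, adjusted p = 9.3e-15, edgeR) and 11.3-fold lower in adults (-3.50 ± 0.20, adjusted p = 1.8e-18), and the difference between stages did not pass (0.83 ± 0.32, adjusted p = 0.29). A related mitochondrial P450, Cyp12a4, had 156 and 202 CPM in DGRP306 larvae, against 119.7, 707 and 2344 CPM, and 256 and 215 CPM in DGRP306 adults, against 115, 441 and 1267 CPM. Its log2 difference was -1.95 ± 0.28 in larvae and -0.80 ± 0.19 in adults, but DGRP332 and DGRP356 were lower than DGRP306 at both stages. The adult call of Cyp12a4 did not pass without replicate 1 (-0.93, adjusted p = 0.063) or without replicate 2 (-0.67, adjusted p = 0.23).

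Jon74E, a Jonah serine protease of the midgut, lies at 3L:17548077-17549127. It had 82.1 and 59.8 CPM in DGRP306 larvae, against 5.15, 1285 and 3783 CPM in the other larvae, and 22.9 and 19.3 CPM in DGRP306 adults, against 2.57, 637 and 1979 CPM. DGRP306 was not the lowest line: 5 other lines were lower in larvae and 4 in adults, and DGRP357, DGRP362 and DGRP879 were lower at both stages. The log2 difference was -3.53 ± 0.77 in larvae (adjusted p = 0.0062, edgeR) and -4.05 ± 0.31 in adults (adjusted p = 4.7e-14). The larval one did not pass without replicate 1 (-3.79, adjusted p = 0.14) or without replicate 2 (-3.33, adjusted p = 0.26).

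Ugt35C1, a UDP-glycosyltransferase, had 17.3 and 9.80 CPM in DGRP306 larvae, against 12.6, 182 and 1984 CPM, and 29.8 and 29.5 CPM in DGRP306 adults, against 30.1, 179 and 1185 CPM. DGRP306 had the lowest mean of 41 lines at both stages, and in adults both libraries fell below all others. It was 13.4-fold lower in larvae and 5.95-fold lower in adults (log2 -3.75 ± 0.69 and -2.57 ± 0.28, adjusted p = 0.00067 and 2.7e-09, edgeR). GstO3, a glutathione S-transferase of the omega class, was lower by log2 -2.17 ± 0.45 in larvae and -1.15 ± 0.20 in adults, with DGRP357 lower at both stages. Rdh1 had 24.6 and 29.4 CPM in DGRP306 larvae and 14.0 and 11.1 CPM in DGRP306 adults, against medians of 142 and 53.0 CPM elsewhere, and 3 other lines were lower at each stage.

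Atf6, a transcription factor of the unfolded protein response, had 24.0 and 9.80 CPM in DGRP306 larvae, against 22.2, 74.6 and 118 CPM, and 21.2 and 30.5 CPM in DGRP306 adults, against 19.9, 92.4 and 161 CPM. Its line mean was the lowest at both stages (log2 -1.99 ± 0.36 and -1.73 ± 0.46, adjusted p = 0.00061 and 0.017, edgeR). Vha68-1, 1 of the genes for the catalytic A subunit of the vacuolar proton pump, had 21.1 and 16.0 CPM in DGRP306 larvae, against 22.9, 37.5 and 79.1 CPM. Its adult values of 62.6 and 53.9 CPM in DGRP306, against 152, 200.4 and 245 CPM, lay below those of all other lines. The adult difference was the larger (log2 -1.05 ± 0.19 in larvae, -1.78 ± 0.10 in adults, stage difference -0.73 ± 0.19, adjusted p = 0.033, edgeR).

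The gene pain, whose product is a TRPA channel for noxious heat, had 9.54 and 7.74 CPM in DGRP306 larvae, against 10.1, 16.9 and 29.3 CPM, and 17.2 and 22.9 CPM in DGRP306 adults, against 39.9, 53.2 and 77.6 CPM. CG5023 had 73.4 and 44.4 CPM in DGRP306 larvae, against 81.0, 197 and 429 CPM, and 20.0 and 22.1 CPM in DGRP306 adults, against 60.6, 109 and 164 CPM. CG32243 had 10.57 and 7.48 CPM in DGRP306 larvae, against 10.59, 23.1 and 52.6 CPM, and 8.38 and 9.23 CPM in DGRP306 adults, against 10.2, 23.4 and 32.4 CPM. For these 3 genes no library of another line was as low as either DGRP306 library at the same stage. The log2 difference of pain was -0.95 ± 0.21 in larvae and -1.36 ± 0.13 in adults, that of CG5023 -1.71 ± 0.33 and -2.35 ± 0.19, and that of CG32243 -1.37 ± 0.25 and -1.37 ± 0.23.

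**Figure D3:**
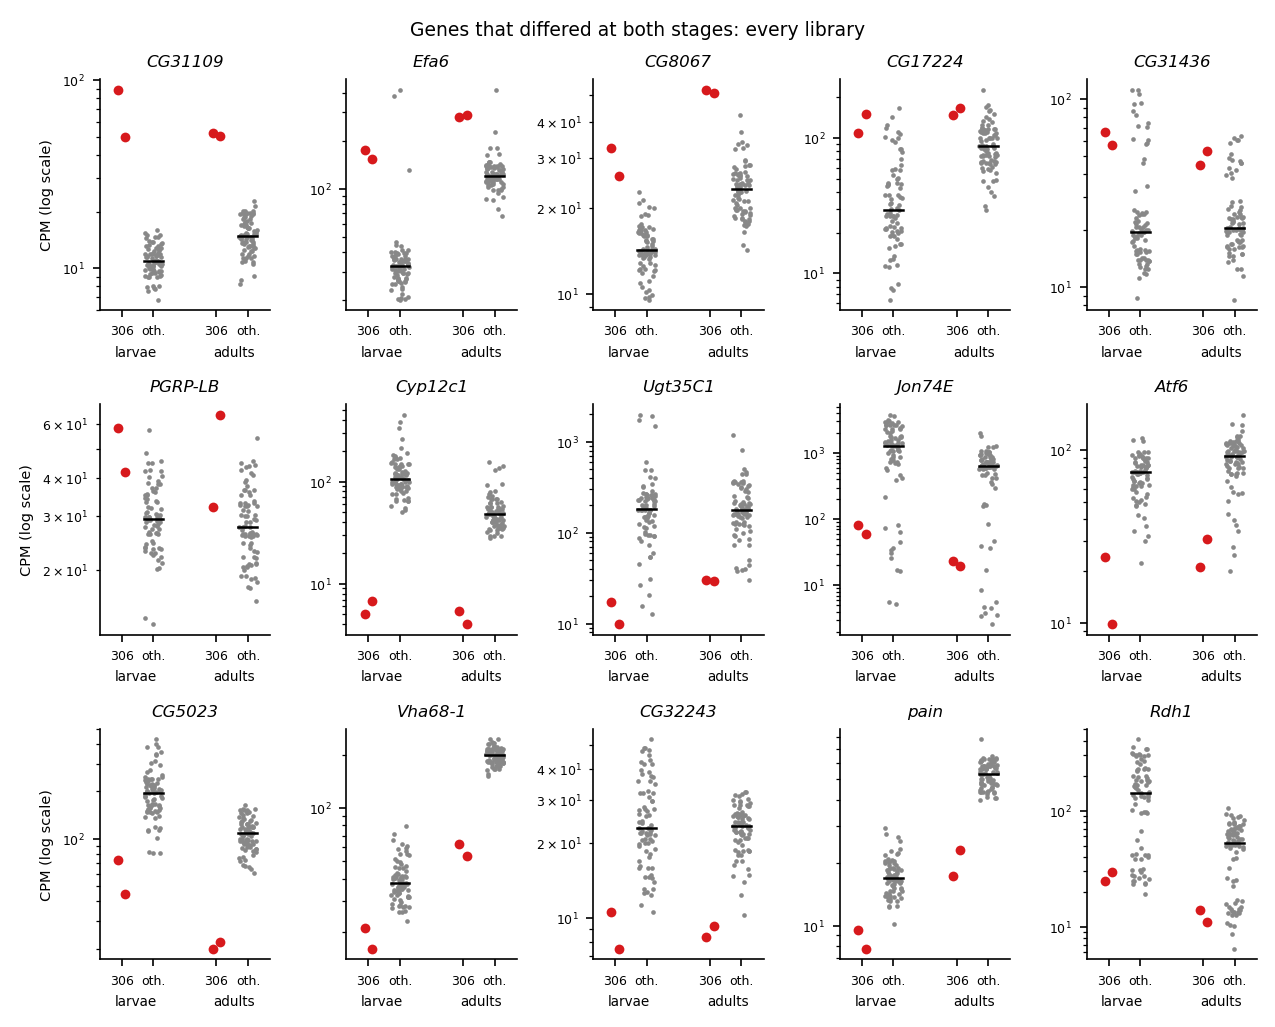
CPM on a log axis in every library for 15 genes called at both stages, with DGRP306 (306, red, 2 libraries per stage) left of the other lines (oth., grey, with the median as a bar) in larvae and then in adults. CG31109 and CG8067 are above, and Cyp12c1, CG5023, Vha68-1, CG32243 and pain below, every other library at both stages, whereas Jon74E, Rdh1 and CG31436 share their level with a few other lines.

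The 2 remaining genes named for this set, CG11893 and CG10116, had log2 differences of -2.80 ± 0.67 and -1.05 ± 0.29 in larvae. The 19 genes lower at both stages that are not described singly had log2 differences from -2.78 to -0.52 in larvae and from -1.08 to -0.32 in adults. They include sut1, a sugar transporter gene, Ssk, whose product is a membrane protein of smooth septate junctions in the gut, and sturkopf, a lipid droplet protein gene. With 1 library left out, 6 of the 12 larval calls ranked for this set passed without replicate 1 and 2 without replicate 2, and 10 and 10 of the 12 adult calls. Cyp12c1 passed in both larval fits. Among adults, Atf6 did not pass without replicate 1 (-1.52, adjusted p = 0.40) or 2 (-2.05, adjusted p = 0.15), and CG11893 did not without replicate 1 (-1.72, adjusted p = 0.26) or 2 (-1.50, adjusted p = 0.31).

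Fewer genes were called in larvae only, and Calx was the clearest. It encodes the sodium-calcium exchanger that clears calcium from photoreceptors and other cells, and lies at 3R:20978183-21015613. DGRP306 larvae had 125 and 154 CPM, against 19.1, 34.8 and 61.4 CPM in the other larvae, with no overlap. DGRP306 adults had 245 and 274 CPM, against 154, 255 and 379 CPM, near the middle of the other lines. The larval difference was 3.94-fold (log2 1.98 ± 0.14, adjusted p = 4.1e-15, edgeR), the adult one 0.05 ± 0.15, and the stage difference was -1.93 ± 0.24 (adjusted p = 1.7e-08).

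CG16762 had 354 and 622 CPM in DGRP306 larvae, against 38.2, 135 and 437 CPM, and 25.1 and 28.4 CPM in DGRP306 adults, against 10.1, 34.8 and 167 CPM. Its larval mean was the highest of 41 lines (log2 1.83 ± 0.31, adjusted p = 0.00029, edgeR), and 26 other lines were above it in adults. CG7882 and sut2, a sugar transporter gene, were higher in larvae by log2 1.34 ± 0.20 and 1.07 ± 0.20, and CG31821 by 0.75 ± 0.18, with 1 other line above DGRP306 for each of the 3. In adults the log2 differences of these 3 genes were 0.27, -0.27 and -0.25, and none was called.

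Of the genes lower in larvae only, Cyp28d1, a P450 linked in flies to nicotine resistance, had 17.9 and 24.0 CPM in DGRP306 larvae, against 28.2, 60.3 and 185 CPM, and 170.5 and 148 CPM in DGRP306 adults, against 50.1, 153 and 483 CPM. SecCl had 12.4 and 13.7 CPM in DGRP306 larvae, against 14.6, 33.3 and 85.6 CPM, and 48.8 and 44.5 CPM in DGRP306 adults, against 34.8, 53.0 and 72.3 CPM. Both genes lay below all other larval libraries and within the range of the adult ones. Their larval log2 differences were -1.59 ± 0.23 and -1.48 ± 0.28 (adjusted p = 1.5e-05 and 0.0011, edgeR), and those of Gba1a (a glucocerebrosidase gene), CtsK2 (a cathepsin gene), CG42694 and Alp5 (an alkaline phosphatase gene) were -2.46, -1.81, -1.77 and -1.40. Alp5 lies inside Calx, at 3R:21005160-21006990, and whether the counting used strand is not given in the sources used here, so reads of the overlap are uncertain.

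Most larval-only genes depended on both libraries: of the 11 larval calls named, 4 passed without replicate 1 and 5 without replicate 2, and Calx, CG7882 and Cyp28d1 passed in both fits. The stage difference itself passed for 1 gene of the table without replicate 1 at both stages and for 13 without replicate 2, against 70 with all libraries.

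In adults only, CG11854 had the largest difference. The gene belongs to the takeout family of proteins that resemble insect juvenile hormone carriers and lies at 3R:25242020-25243262. DGRP306 adults had 118 and 120.4 CPM, against 1.10, 8.33 and 92.9 CPM in the other adults, above every one of them. DGRP306 larvae had 153 and 137 CPM, against 5.80, 73.6 and 427 CPM, within the spread. It was 12.3-fold higher in adults (log2 3.62 ± 0.19, adjusted p = 1.9e-19, edgeR), and the larval value was 0.88 ± 0.49 (adjusted p = 0.45).

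Nepl21, a neprilysin-like peptidase gene, had 176 and 164 CPM in DGRP306 adults, against 19.4, 56.1 and 135 CPM, and 56.1 and 81.5 CPM in DGRP306 larvae, against 16.9, 72.0 and 149 CPM. No other adult library reached its level (log2 1.55 ± 0.20, adjusted p = 1.6e-07, edgeR). The gene tobi, an alpha-glucosidase gene known as a target of insulin-producing cells, had 1980.2 and 1999 CPM in DGRP306 adults, against 117, 538 and 4856 CPM. DGRP306 larvae were near the low end, with 3 other lines lower, at 3.83 and 20.4 CPM, against 1.26, 47.5 and 1478 CPM. Its adult difference was 1.56 ± 0.28 (adjusted p = 0.00014, edgeR), its larval one -2.25 ± 0.82 (adjusted p = 0.18), and the stage difference of 3.80 ± 0.83 was called (adjusted p = 0.0078).

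ninaD, the scavenger receptor that takes up carotenoids for vision, had 215 and 121 CPM in DGRP306 adults, against 1.60, 56.7 and 289 CPM, and 173 and 414 CPM in DGRP306 larvae, against 52.9, 299 and 783 CPM. Only 2 other lines were higher in adults (log2 1.94 ± 0.26, adjusted p = 5.2e-07, edgeR), and 23 were in larvae. Cyp6a23 was higher in adults by 1.55 ± 0.24, with 7 other lines above DGRP306. Reads of Cyp6a23 and its neighbour and close relative Cyp6a17 may be split between them by the counting, and Cyp6a17 was lower in larvae (-1.75 ± 0.38, adjusted p = 0.0062, edgeR), a call that did not pass without replicate 1 (adjusted p = 0.21) or 2 (adjusted p = 0.16). For CG18748, the adult call rested on replicate 2, with 20.4 and 42.8 CPM in the 2 libraries, and without it the log2 difference was 0.52 (adjusted p = 0.62).

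Among the genes lower in adults only, CG17571 had 37.2 and 24.0 CPM in DGRP306 adults, against 29.8, 219 and 673 CPM, the lowest of 41 line means. In DGRP306 larvae it had 1769 and 1213 CPM, against 189, 2070.2 and 10346 CPM. Gem3, a DEAD-box helicase of the SMN complex, had 15.0 and 16.0 CPM in DGRP306 adults, against 17.7, 48.9 and 122 CPM, and 13.6 and 8.51 CPM in DGRP306 larvae, against 7.13, 13.8 and 24.5 CPM. The adult log2 differences were -2.74 ± 0.30 and -1.64 ± 0.18 (adjusted p = 4e-09 and 3.1e-09, edgeR). Lower values in adults only were also called for mthl9 (a methuselah-like receptor gene), CG15865, CG4935 and Cad74A (a cadherin gene), from -1.42 to -1.17. Every adult DGRP306 library of Gem3, CG15865 and CG4935 was below all other adult libraries, and the larval values of these 3 genes lay within the range of the others.

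At their own stage 12 of these 12 adult-only calls passed without replicate 1 and 9 without replicate 2. CG18748, CG4935 (adjusted p = 0.080) and Cad74A (adjusted p = 0.062) were the exceptions. The 23 genes called in adults only that are not described singly had adult log2 differences from 0.51 to 1.19 for 17 higher genes and from -1.05 to -0.49 for 6 lower ones. They include LpR2, a lipoprotein receptor gene, Idi, whose enzyme makes isoprenoid precursors, Dh31-R, the receptor gene of a diuretic hormone, and Der-1, a gene of protein export from the endoplasmic reticulum.

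Opposite directions were called for CG7916, CG10799 and CG18493, each lower in DGRP306 larvae and higher in DGRP306 adults. CG7916 had 105 and 213 CPM in DGRP306 larvae, against 146, 980.4 and 6134 CPM, and 452 and 337 CPM in DGRP306 adults, against 22.9, 224 and 565 CPM. The line mean was the lowest of 41 in larvae, and 36 other lines were below it in adults. Its log2 differences were -2.66 ± 0.54 in larvae and 1.01 ± 0.27 in adults (adjusted p = 0.0028 and 0.016, edgeR), and the stage difference was 3.68 ± 0.58 (adjusted p = 4.4e-05). For CG10799 and CG18493 the stage differences were 1.77 ± 0.34 and 1.75 ± 0.33. None of the 6 single-stage calls of these genes passed without replicate 1 or without replicate 2, with larval values from -3.26 to -0.93 and adult ones from 0.34 to 1.21.

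**Figure D4:**
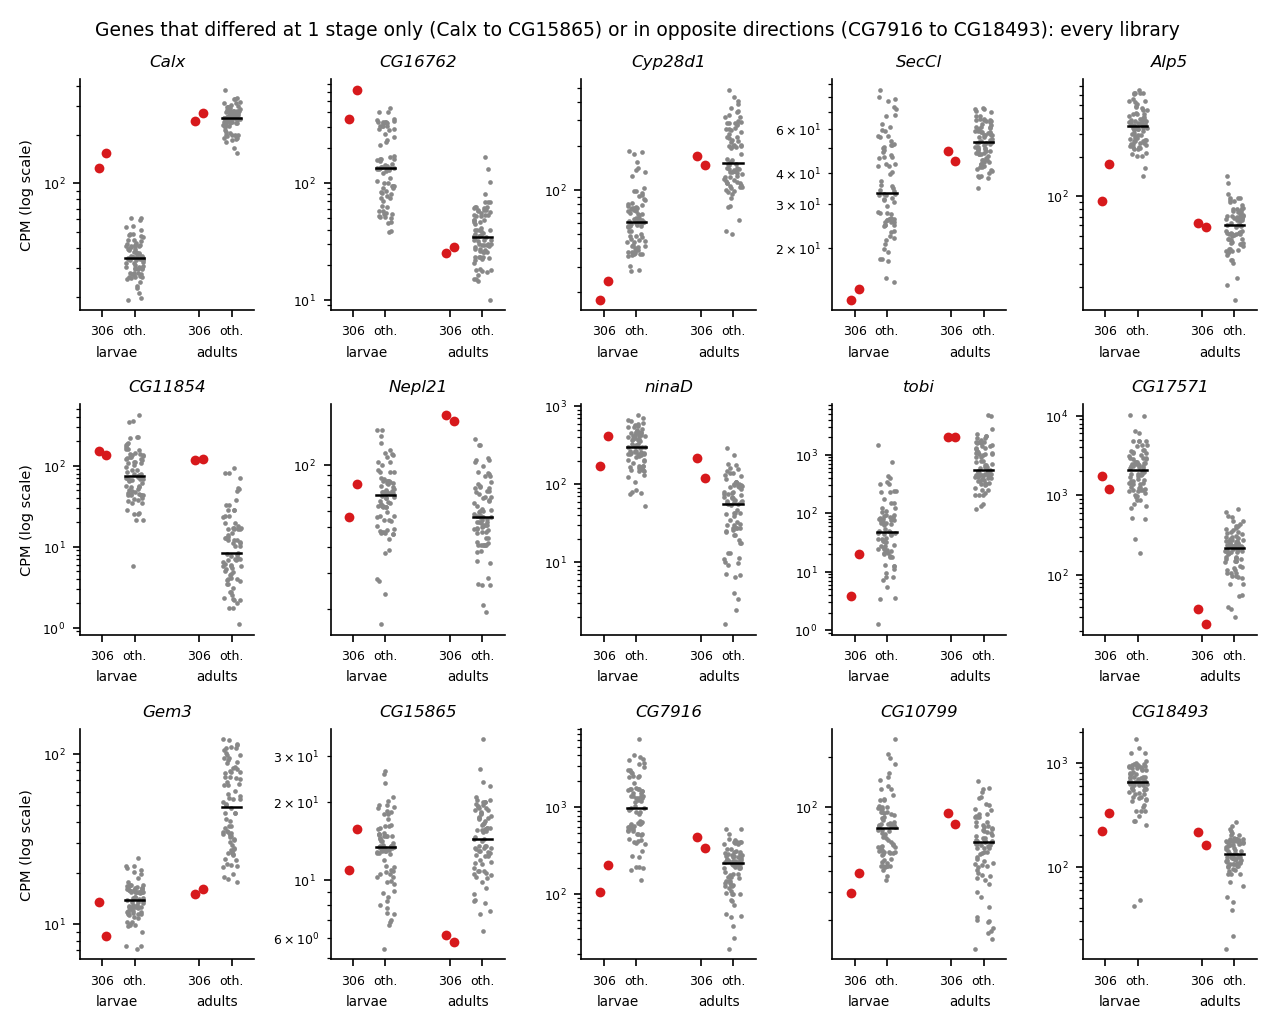
CPM on a log axis in every library for 12 genes called at 1 stage only, Calx to CG15865, and 3 called in opposite directions, CG7916 to CG18493, with DGRP306 (306, red) left of the other lines (oth., grey, bar at the median) in larvae and then in adults. The red points leave the grey range in larvae for Calx, Cyp28d1 and SecCl and in adults for CG11854, Nepl21, Gem3 and CG15865.

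Detoxification genes were called in both directions. Of 53 P450 genes, 1 was higher and 5 were lower in DGRP306 larvae, and 5 were higher and 5 lower in DGRP306 adults, or 11.3% and 18.9% of the list against 1.79% and 4.30% of all genes. The list's median log2 difference was -0.05 in larvae and 0.10 in adults, against 0.01 and 0.00 over all genes. Adults were higher for Cyp4d14 and Cyp4p1 and lower for Cyp4d1, Cyp310a1 and Cyp305a1. Of 19 glutathione S-transferase genes, GstO3 was lower at both stages, GstE10 (-1.22 ± 0.21) and GstE11 were lower in adults and GstE3 was higher there (0.95 ± 0.22). Of 18 UDP-glycosyltransferase genes, 2 were lower at each stage and none higher: Ugt35C1 at both, Ugt36A1 in larvae (-1.07 ± 0.25) and Ugt304A1 in adults (-0.67 ± 0.19). The called shares were 5.26% and 21.1% of the glutathione S-transferase list and 11.1% and 11.1% of the UDP-glycosyltransferase list in larvae and adults, against 1.79% and 4.30% of all genes. Ugt36A1 did not pass without replicate 1 (adjusted p = 0.18), without replicate 2 (adjusted p = 0.32) or with the sequencing pool as a term (adjusted p = 0.18). Ugt304A1 was at -0.34 (adjusted p = 0.71) without replicate 2, and GstE3 did not pass without replicate 1 (adjusted p = 0.22) or 2 (adjusted p = 0.080).

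Digestive genes were called in both directions too. Of 19 midgut serine protease genes, Jon65Ai and epsilonTry were higher in DGRP306 larvae, Jon74E was lower at both stages and yip7 was lower in adults. That is 15.8% of the list in larvae and 10.5% in adults, against 1.79% and 4.30% of all genes. Jon65Ai had 5665 and 6894 CPM in DGRP306 larvae, against 559.8, 2049 and 5336 CPM, above all others (log2 1.54 ± 0.33, adjusted p = 0.0051, edgeR). The trypsin gene epsilonTry had 9867 and 11253 CPM, against 1217, 4173 and 10809 CPM. In the list of 10 carbohydrate digestion genes, of which 20.0% were called in larvae and 10.0% in adults, the alpha-amylase genes Amy-d and Amy-p were higher in larvae by 1.98 ± 0.47 and 1.79 ± 0.49, but the copies are nearly identical and their reads cannot be assigned with certainty. Their values in DGRP306 larvae, 86.7 and 235 CPM for Amy-d, overlapped the other lines, which reached 332 CPM. With the sequencing pool as a term, the larval calls of Jon65Ai, epsilonTry, Amy-d and Amy-p did not pass (adjusted p = 0.47, 0.27, 0.076 and 0.315, edgeR). None of these 4 larval calls passed without replicate 2, where Amy-d was at 1.10 and Amy-p at 1.06, and Amy-d alone passed without replicate 1.

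Of 36 immunity genes, PGRP-LB was higher in larvae, and PGRP-LB, pirk, SPE and Tep2 were higher in adults, with none lower. The larval share of 2.78% was near the 1.79% of all genes, and the adult share was 11.1%, against 4.30%. SPE, the protease that activates the Toll ligand Spätzle, had 175 and 233 CPM in DGRP306 adults, against 43.7, 112 and 341 CPM (log2 0.84 ± 0.15, adjusted p = 0.00019, edgeR). For pirk, an inhibitor of the Imd pathway, 1 adult library decided the call: the values were 3.45 and 46.6 CPM, against 2.05, 5.81 and 28.1 CPM, and the log2 difference of 2.09 ± 0.34 became -0.90 (adjusted p = 0.77) without replicate 2. PGRP-LB was high in that library too. The SPE call also failed without it (0.61, adjusted p = 0.19).

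Genes of fat metabolism and of redox balance differed in a few members. Of 18 fat storage genes none was called in larvae, and Lip4 (a lipase gene, 1.05 ± 0.17) and Lsd-1 (a perilipin gene, 0.83 ± 0.23) were higher in adults. Of 24 insulin and TOR genes, Ilp6, an insulin-like peptide of the fat body, was higher in adults (0.65 ± 0.16). Of 17 antioxidant genes, 2 were lower in larvae: Gclm, the modifier subunit of the enzyme for the first step of glutathione synthesis (-1.01 ± 0.25), and Keap1, the inhibitor of the CncC stress response factor (-0.99 ± 0.20). In adults their log2 differences were -0.01 and -0.21. Of 20 vacuolar pump genes Vha68-1 was lower at both stages and Vha100-5 higher in adults (0.78 ± 0.16). Idh3b, a subunit gene of the mitochondrial isocitrate dehydrogenase, was the 1 citric acid cycle gene of 19 called, lower in adults with both libraries under all others (-0.53 ± 0.09). Against 1.79% of all genes in larvae, the called shares there were 11.8% of the antioxidant and 5.0% of the vacuolar pump list and 0 of the fat storage, insulin and TOR, and citric acid cycle lists. Against 4.30% in adults, they were 11.1% for fat storage, 4.17% for insulin and TOR, 10.0% for the vacuolar pump, 5.26% for the citric acid cycle and 0 for the antioxidant list, which rest on 1 or 2 genes each. The larval calls did not pass without replicate 1 or without replicate 2 for Gclm (adjusted p = 0.38 and 0.13) and Keap1 (0.085 and 0.23), and that of Gclm did not with the pool term (adjusted p = 0.10). Nor did the adult calls of Lsd-1 (adjusted p = 0.18 and 0.37) and Vha100-5 (0.090 and 0.059), and that of Ilp6 did not without replicate 2 (adjusted p = 0.48).

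Many groups showed no call at either stage, where 1.79% of all genes were called in larvae and 4.30% in adults. At these shares a short list can hold no call without differing from the rest. In 18 of the 38 lists, with 473 members between them, no gene passed in larvae or in adults. These include 86 cytoplasmic and 73 mitochondrial ribosome genes, 63 genes of oxidative phosphorylation, 32 of the proteasome, 32 of DNA replication, 23 chaperones, 22 sarcomere, 21 synapse, 15 hemocyte and 6 testis genes. In the 8-member ovary list grk, the oocyte's signal to its follicle cells, was lower in adults (-0.70 ± 0.15). It overlaps Akap200, so that reads of the overlap are uncertain. In the 14-member list of male and dosage genes, tra2 was lower in adults (-0.40 ± 0.10). These single genes are 12.5% and 7.14% of their lists, against 4.30% of all genes called in adults. Without replicate 1, grk was at -0.42 (adjusted p = 0.52) and without replicate 2 at -1.21, and tra2 did not pass without replicate 1 (adjusted p = 0.37) or 2 (adjusted p = 0.086). The lists were written with other results of these data known, so their counts are a description.

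The called genes were spread over all major arms. Arm 3R held 24.7% of the genes with a position, 30.3% of the larval and 22.6% of the adult calls, and the X held 16.7%, 12.1% and 10.1%. Some lay side by side. The next tested gene along the chromosome was also called for 4.55% of larval calls, against 1.80% over all genes, and for 7.86% of adult calls, against 4.32%. To describe such neighbourhoods, genes called at either stage were joined into groups wherever the gap between 1 called gene and the next was at most 50 kb. Tested genes lie densely at this distance, so nothing is read from the number of groups.

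A group of 8 called genes among 33 tested lay at 3R:25216297-25346921 and went in both directions. CG11854, CG10513, CG31098, CG31436 and tobi had their called values above the other lines, and CG31106, CG11893 and CG31288 below. CG10513, CG11893, CG31098, CG31288 and CG31436 are neighbours of the ecdysteroid kinase-like family, so similar copies may share reads. CG31288 also differed between stages (log2 -2.78 in larvae, -0.90 in adults, stage difference 1.87 ± 0.41, adjusted p = 0.0086, edgeR). Genes between them that were not called ranged widely, with log2 differences of -2.71 in larvae and -0.62 in adults for CG10562 and of 0.45 and 0.62 for CG10514, against 0.06 and -0.11 for CG11892. These 3 genes were chosen after their values had been seen.

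Another 8 called genes among 20 tested lay at 2L:8370454-8463994. Naglu was higher at both stages, CG17292, CG13384, Akap200 and Aasdh were higher in adults, and Peritrophin-15a, grk and Agpat2 were lower in adults. On 2L, the neighbours NimB2, NimB4 and NimB5, secreted proteins of the Nimrod family that includes receptors for bacteria, were higher in adults by 0.71, 1.41 and 1.25. On the X, Cyp4d14 and Cyp4d2 were higher in adults by 1.52 and 0.72, and their neighbour Cyp4d1 was lower by 1.19 on the log2 scale.

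**Figure D5:**
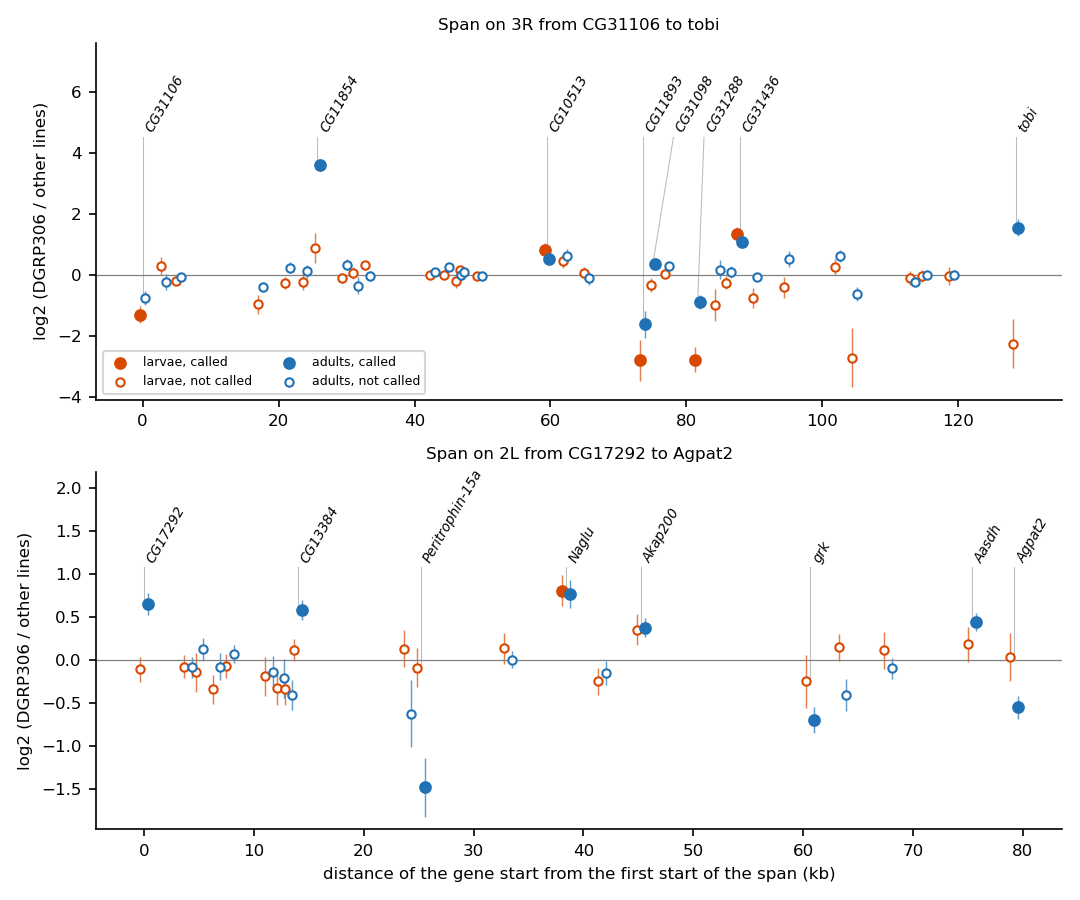
Fitted log2 difference of DGRP306 from the other lines (y axis, bars are SE) for every tested gene in the 2 groups of neighbouring calls with the most called genes, by distance of the gene's start from the first start of the group in kb (x axis). Larvae are orange and adults blue, filled where called and open where not, and called genes of both directions are mixed with uncalled ones.

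When the line and not the library was the unit, with DGRP306 as 1 value against the spread of the 40 other line means in limma-trend with the Benjamini-Hochberg adjustment, 9 genes passed in larvae and 10 in adults, 16 different genes in all. CG31109, Cyp12c1 and Atf6 passed at both stages. Larvae added Calx, CG8067, CG31288, CG1513, CG14984 and CG8004, and adults added Srpk79D, CG9813, CG5023, sp3, pain, Vha68-1 and CG32243. Srpk79D, which encodes an SR protein kinase of the nervous system, had 77.6 and 80.8 CPM in DGRP306 adults, against 148, 199 and 262 CPM in the others. CG9813 had 68.7 and 63.0 CPM there, against 154, 221 and 286.5 CPM. These 2 genes and the others of this set that the naming rule does not cover were chosen after their values had been seen. At an unadjusted p under 0.05 in limma-trend, 289 of 7414 genes passed in larvae and 223 in adults. Both counts are below the share of 0.05 that this threshold passes where no gene differs.

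Each DGRP306 library carried its own sequencing pool number, with 6 and 4 other larval and 12 and 12 other adult libraries in the same pools. Against the other libraries of its own pool, 66 of the 67 calls of the genes described for both stages or 1 stage kept their sign in both DGRP306 libraries. The exception was alien in adults. These genes had been picked by their differences in the same DGRP306 libraries, so agreement in sign was largely set by that choice and is no test of pool. With pool as a term in the fit, 45 larval and 312 adult genes were called, and 26 genes at both stages. Of the larval calls of these genes, CG31436, Naglu, PGRP-LB, Cyp4d2, CG10513, alien, CG11893, CG10116, CG16762, CG31821, Gba1a and SecCl did not pass with it, at log2 differences from -2.65 to 1.73, and of the adult calls CG10513 did not.

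Over the 41 line means, the genes most like Jon74E, which had the largest of the smaller log2 differences among genes called at both stages, were CG31343, yip7 and CG17167. Their Spearman correlations with it were 0.50, 0.48 and 0.48 in larvae and 0.51, 0.62 and 0.44 in adults, as a description over lines that share pools and depths. yip7, a Jonah-related protease gene, had 1117 and 921 CPM in DGRP306 adults, against 449, 1999.9 and 6196 CPM (log2 -1.02 ± 0.26, adjusted p = 0.012, edgeR), and its call did not pass without replicate 1 (adjusted p = 0.14) or 2 (adjusted p = 0.29). CG31343 and CG17167 were not called at either stage.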

How the data were processed

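Whole-body polyA RNA of larvae and adults was sequenced with a stranded kit, per the labels' protocols. The submitters' processing notes name FastQC, Trimmomatic, STAR and the builds BDGP6 and dm6. The step that made the counts and its use of strand are not given in the sources used here. The authors deposited raw counts of 7414 genes in 164 libraries, the smallest being 11. Of the gene identifiers, 7349 matched the Ensembl 115 annotation of BDGP6, which gave symbols and positions, and 65 did not.

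The larval libraries DGRP787 replicate 1 and DGRP491 replicate 2 hold identical counts and were left out, leaving 162. Library sizes were scaled by TMM, and CPM values are the deposited counts divided by the scaled sizes. A filter of 1 CPM in 2 libraries removed no gene. Within each stage edgeR 4.0.16 (R 4.3.3) fitted 1 coefficient per line, and its quasi-likelihood test compared DGRP306 with the mean of the 40 other lines. The stage difference was tested in a joint fit. P-values were Benjamini-Hochberg adjusted over all genes, and SE is the log2 difference divided by the root of F. The procedure was also run on simulated counts with known changes in DGRP306. They held no differences among the other lines or between pools, so they do not cover the spread of lines. Totals ran from 2407244 to 26429404 counts per larval and from 2748964 to 20421026 per adult library, which limits the precision of low genes. The labels call the libraries of a line and stage biological replicates, and p-values measure the spread between them.

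Named genes were up to 12 higher and 12 lower at both stages, ranked by the smaller log2 difference, up to 6 in each direction at 1 stage, up to 4 with opposite signs, and up to 3 called members per gene list, all from 5 CPM for the stage classes. Further genes given as examples of a class, a neighbourhood or the fit over lines were picked after their values had been seen. The line, the members and the lists were chosen with earlier results of these data known. Replicate numbers did not pair libraries across lines. Alternatives were DESeq2 1.42.0 (size factors, Wald test), other filters, each DGRP306 library left out, a replicate block, a pool term, the line as the unit (limma 3.58.1), other sets of larval libraries and a 1.5-fold threshold.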

Additional observations from a re-analysis of the deposited data

Results flagged for a closer look

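The difference of DGRP306 from the other lines was itself different between adults and larvae for the genes below (edgeR quasi-likelihood test of the interaction of line and stage). Values are the adult minus the larval log2 difference.

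Among genes called at both stages, it was -0.91 for CG31109, -1.04 for Efa6, -0.73 for Vha68-1 and 1.15 for Cyp12a4. Among genes called with opposite signs, it was 3.68 for CG7916, 1.77 for CG10799 and 1.75 for CG18493.

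For genes higher in larvae only, the value was -1.93 for Calx, -2.28 for CG16762, -1.08 for CG7882, -1.33 for sut2 and -1.002 for CG31821. For genes lower in larvae only, it was 2.58 for Gba1a, 1.77 for CtsK2, 1.46 for CG42694, 1.49 for Cyp28d1, 1.29 for SecCl, 1.48 for Alp5 and 1.00 for Gclm.

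For genes higher in adults only, the value was 2.73 for CG11854, 1.92 for ninaD, 3.80 for tobi, 1.54 for Nepl21, 2.41 for Cyp6a23, 1.35 for CG18748 and 1.17 for Lip4. For genes lower in adults only, it was -2.29 for CG17571, -1.37 for Gem3, -1.07 for mthl9, -1.25 for CG15865, -1.45 for CG4935 and -1.57 for Cad74A.

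Ag5r2, a marker used to check the stage labels, was called at neither stage, and its difference between stages was -1.74 (adjusted p = 0.049).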

How the results depend on the processing

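Counts are given in the order larvae, adults, stage difference, both stages, larvae only and adults only, and were 133, 319, 70, 42, 16 and 36. They stayed within 1.5 times of these values with DESeq2 size factors, the DESeq2 Wald test, other filters, other sets of larval libraries and the replicate block. With 1 DGRP306 library left out they ranged from 26 to 33, 103 to 141, 1 to 13, 7 to 8, 1 to 3 and 0 to 5. With pool as a term they were 45, 312, 26, 26, 5 and 14, and 24.4% of larval calls were higher. With the line as the unit (limma-trend) they were 9, 10, 0, 3, 0 and 0. For the stage difference 235 of 7414 genes had an unadjusted p under 0.05 there, again below a share of 0.05. With a 1.5-fold threshold, which for the stage difference and the classes was chosen after seeing the data, they were 20, 40, 3, 7, 2 and 1. The cause was not tested, beyond the fewer libraries of the first case.

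With the replicate block the counts were 135, 364, 77, 43, 17 and 43. The numbers do not pair the libraries: the median r of DGRP306 with the other lines was 0.05 in larvae and -0.07 in adults. Of 103 calls of named genes, 102 passed with the block, 78 with pool, 12 with the line as the unit, 53 without replicate 1 and 45 without replicate 2. The adult value of pirk was 2.85 without replicate 1 and turned to -0.90 (adjusted p = 0.77) without replicate 2. The shallower DGRP306 libraries held 3698642 counts in larvae and 4205700 in adults, which limits the precision of genes with low counts.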
